A study of Danio rerio with 6 samples.

Results

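Alternative exon ends are pairs or small groups of exons that overlap but begin or stop at different splice sites. They were described here in adult zebrafish liver from 3 libraries of the genotype capn3b-/- mutant and 3 libraries of wild type AB, all labelled as liver at the adult stage. The labels give no further allele or treatment and no sex, and do not say whether each library came from its own fish, so p-values measure only the spread between these libraries, which may be technical. For each library the authors deposited an event list, with 1 FPKM value for every event, and rows of the type AE, the list's code for alternative exon ends, were matched between libraries by chromosome, start, end, event pattern and strand. Of 6798 AE forms listed in at least 1 library, 4064 were listed in all 6. After removing 48 forms without a gene name and 2 that were the only form of their gene, 4014 forms in 1737 genes were kept, and these are the forms described below. The whole lists held 94148 to 94622 event rows per mutant library and 93184 to 94053 per wild type library.

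The beginning of an internal exon is set by its 3′ splice site, the acceptor, which is recognised by SF1, U2AF and the U2 snRNP. Its end is set by the 5′ splice site, the donor, which pairs with the U1 snRNP. SR proteins and hnRNPs bound nearby shift the choice between neighbouring sites, and a shift by a whole number of codons keeps the reading frame where the exon is coding. Calpain 3, the calcium-dependent protease named by capn3b, is best known from muscle, and zebrafish Capn3b is also known to act with the nucleolar protein Def during liver growth.

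The number of AE rows did not separate the genotypes. Mutant libraries listed 4819, 4787 and 4907 AE rows, against 4836, 4670 and 4744 in wild type libraries. The ranges overlapped, and the mean difference of 87.7 rows gave p = 0.3 (exact two-sided permutation test, 3 libraries against 3, for which the smallest possible p is 0.1). Listed forms were often without signal: 44.3 to 47.3% of AE rows in mutant libraries and 45.9 to 49.4% in wild type libraries had an FPKM of 0. Among the 4014 kept forms, 1280 (31.9%) were at 0 in every library, 1223 (30.5%) were above 0 in every library and 1511 (37.6%) were at 0 in some libraries only.

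Neither capn3 gene had an AE form, so the list holds no direct readout of the mutated gene. In the gene table capn3b was at 0, 0 and 0.0181 FPKM in mutant libraries and at 0, 0 and 0 FPKM in wild type libraries. The transcript was near 0 in both genotypes and does not check the labels. Hepatocyte markers were high in all libraries, with 10 of them summing to 93139 to 94294 FPKM in mutant and 94272 to 108320 FPKM in wild type libraries. Of these 10, 2 were higher in the mutant and none lower (limma, adjusted p under 0.05). Over all 11164 genes tested, 5.91% were higher and 5.45% lower. Marker sums of other cells were mixed. The 7 macrophage markers summed to 361 to 611 FPKM in mutant and 228 to 394 FPKM in wild type libraries (3 of 7 higher, none lower), which overlap. The 6 neutrophil markers summed to 23.6 to 59.0 FPKM in mutant and 7.06 to 11.9 FPKM in wild type libraries (4 of 5 tested higher). The 4 erythrocyte markers found summed to 175 to 195 FPKM in mutant and 321 to 388 FPKM in wild type libraries (3 of 4 lower). The 3 biliary markers found summed to 558 to 711 FPKM in mutant and 430 to 440 FPKM in wild type libraries (1 of 3 higher). The 4 stellate markers found summed to 10.78 to 19.7 FPKM in mutant and 7.16 to 10.75 FPKM in wild type libraries (none of the 4 higher or lower). Neutrophil, erythrocyte, biliary and, narrowly, stellate sums did not overlap between the genotypes. The endothelial sums did, at 20.03 to 21.5 FPKM in mutant and 19.7 to 22.0 FPKM in wild type libraries, and so did the exocrine pancreas sums, at 142 to 544 FPKM in mutant and 141 to 1112 FPKM in wild type libraries, with wild type library 1 the highest. Mitochondrial genes took 4.47 to 5.48% of the FPKM in mutant and 6.25 to 8.61% in wild type libraries, without overlap. Their part in the exon end results was not tested, and in bulk RNA fewer cells of a type and less RNA per cell cannot be told apart.

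Most kept forms came as simple pairs. The 4014 forms made 1968 groups of overlapping exons, of which 1901 held exactly 2 forms. The acceptor end differed in 1140 pairs (59.97%), the donor end in 741 (38.98%) and both ends in 20. Acceptor pairs differed by a median of 28 bases and donor pairs by 33 bases, and over all pairs the quartiles of the difference were 18 and 60 bases. No pair that shared 1 end differed by less than 10 bases. The very short shifts known from tandem splice sites are therefore not among these pairs. The 66 groups of 3 or more forms were not compared in this way. The difference was a multiple of 3 in 752 acceptor pairs (66.0%), 523 donor pairs (70.6%) and 17 of the 20 pairs that differed at both ends. Differences of 12 bases were found in 72 acceptor and 74 donor pairs, and 15 bases was the commonest difference at acceptors, with 101 pairs.

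**Figure D1:**
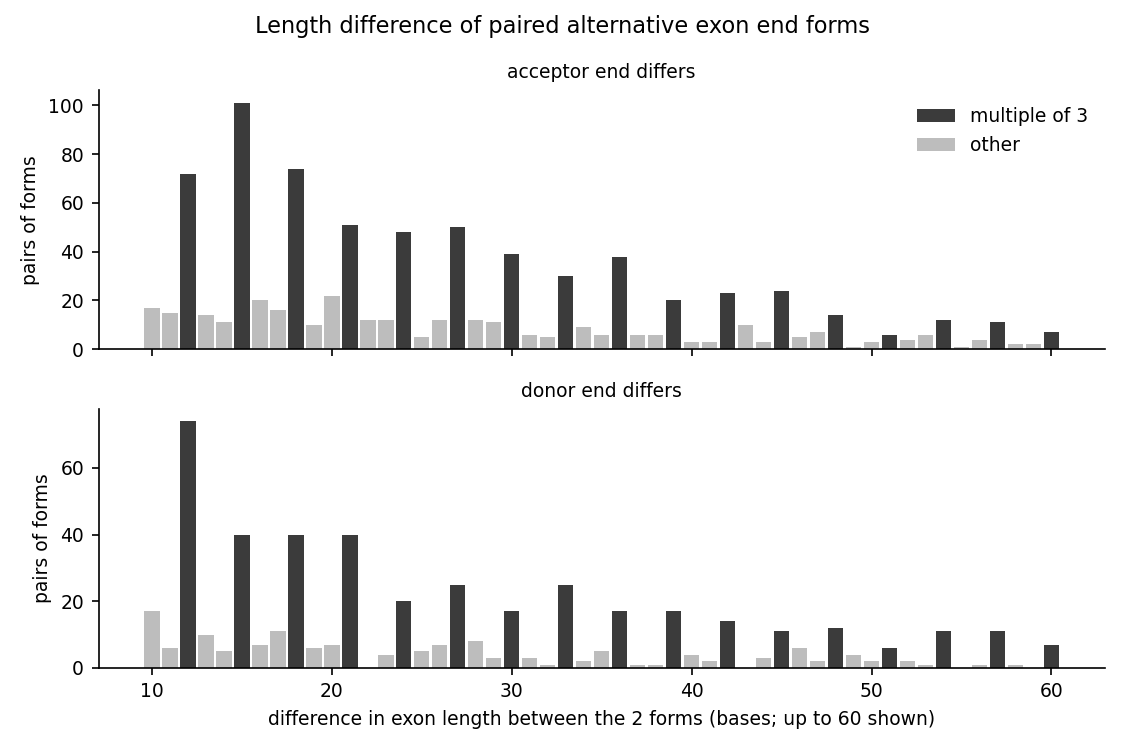
Number of pairs (y axis) by difference in exon length in bases (x axis, up to 60 shown), for pairs that differ at the acceptor end (top) and at the donor end (bottom). Dark bars are multiples of 3 and stand above their neighbours; no pair lies below 10 bases.

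Within a pair, 1 form usually carried all of the signal. In 847 pairs the 2 forms had a sum of 1 FPKM or more in each library. Of these, 349 gave the longer form the same share in all 6 libraries: the longer form alone had signal in 162 pairs and the shorter form alone in 187. Both forms were above 0 in every library in 117 pairs. In single libraries both were above 0 in 34.9, 32.6 and 33.5% of pairs in the mutant and in 32.8, 33.4 and 33.8% in wild type. The genotypes overlapped in this measure. The median share of the longer form was 49.5 to 51.1% in mutant libraries and 46.7 to 55.1% in wild type libraries, so no lean to longer or shorter exons exceeded the spread between libraries.

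The pairs in which both forms were used differed in structure from the pairs with a single form in use. The length difference was a multiple of 3 in 96 of the 117 pairs with both forms above 0 everywhere (82.1%), in 206 of the 349 pairs with a constant share (59.0%) and in 256 of the 381 other pairs (67.2%). The acceptor end differed in 45.3% of the first set, 65.3% of the second and 62.5% of the third. These are counts over pairs of exons in the same libraries and carry no test.

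**Figure D2:**
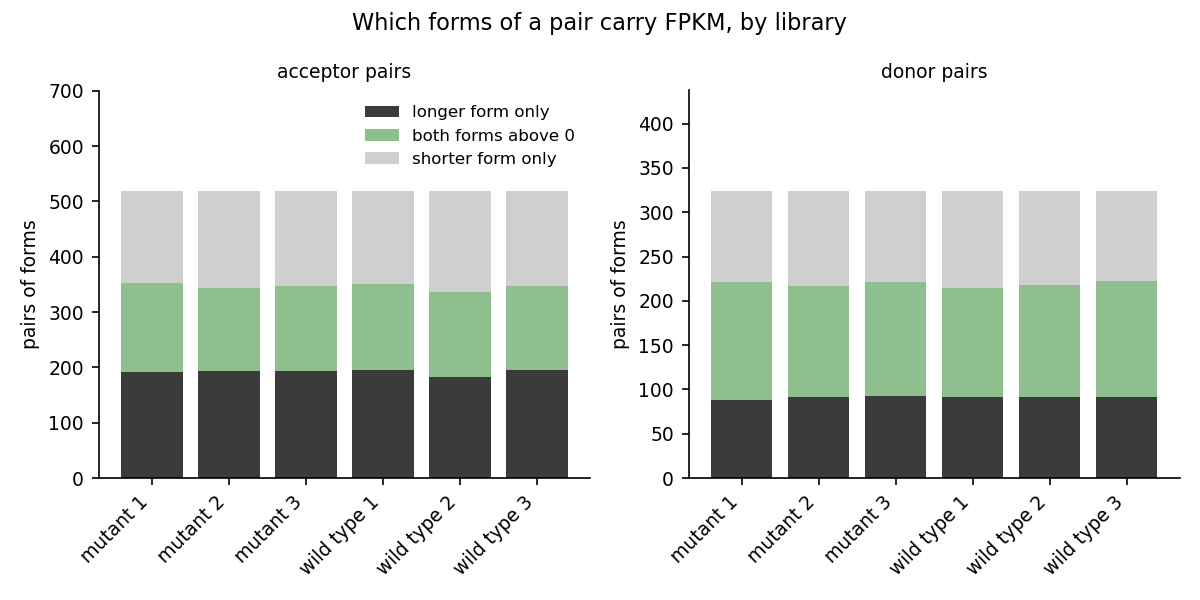
Number of pairs (y axis) in each library (x axis, 3 mutant then 3 wild type) whose FPKM lay in the longer form only, in both forms or in the shorter form only, for acceptor pairs (left) and donor pairs (right). The 3 classes have similar sizes in all 6 libraries.

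The comparison of the genotypes used the share of each form, in percent of the FPKM of all kept AE forms of its gene. The test took genes whose kept forms reached a sum of 1 FPKM or more in each of the 6 libraries, which left 1898 forms (47.3% of those kept) in 801 genes. In 312 of the 801 genes the share was the same in all 6 libraries. The 6 forms that passed at an adjusted p under 0.05 (limma, Benjamini-Hochberg over all 1898 forms) belonged to npm1a, ash2l and nrd1a, and made up 0.316% of the forms tested. At an unadjusted p under 0.05 there were 84 forms. In 108 forms of 55 genes (5.69% of those tested) no mutant library overlapped a wild type library. Only the 1137 forms whose share varied could separate in this way. With 3 libraries against 3, full separation would have a probability of 0.1 under random order if no shares were tied. Forms with the same share in most libraries cannot separate, and such forms, as in ldlra, are among the 1137. The share expected over the 1137 forms is therefore under 0.1. Its size was not worked out, so 108 of 1137 does not show whether the separations exceed it. The 2 forms of a pair mirror each other, so 54 of these 108 were higher and 54 lower in the mutant, with a median absolute difference of 19.9 percent points.

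The test had limited reach at this number of libraries. Among the 1137 forms whose share varied, the median difference between the genotypes was 6.68 points, and the median standard deviation between libraries of 1 genotype was 7.99 points in the mutant and 9.29 points in wild type. On simulated shares for the same 1898 forms, 5 of 30 shifts of 20 points and 14 of 30 shifts of 40 points were recovered, with 1 false call among 20. These rates describe the simulated shares only. Shifts were put only on varying forms whose mean share lay in the middle of the range, with noise drawn separately for each form. In the data, each of the 6 forms past the threshold had a constant share within at least 1 genotype, and the 2 forms of a pair mirror each other. Whether the rates carry over to such forms was not tested. Leaving out any 1 of the 6 libraries left 2 forms past the threshold, both of npm1a.

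**Figure D3:**
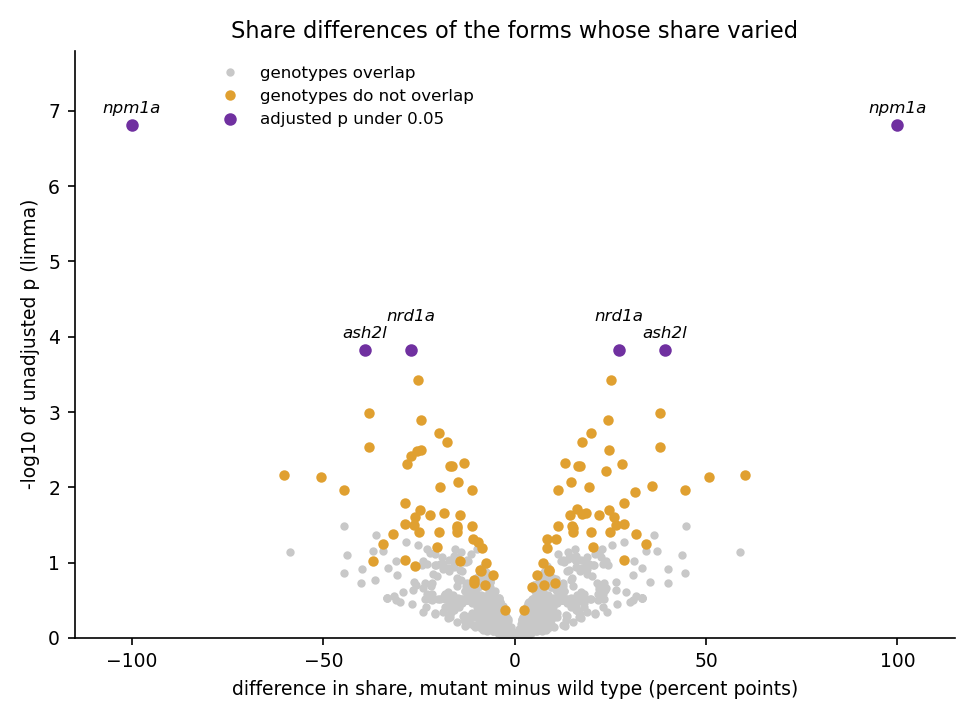
Difference in share, mutant minus wild type, in percent points (x axis) against -log10 of the unadjusted limma p (y axis) for the 1137 forms whose share varied. The npm1a forms lie at 100 and -100 points, the ash2l and nrd1a forms follow, and forms whose libraries do not overlap between genotypes are drawn in orange.

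The exchange at npm1a was complete. npm1a (ENSDARG00000014329) encodes nucleophosmin, an abundant nucleolar protein and histone chaperone. Its 2 forms, on chromosome 10 of GRCz11, plus strand, share the exon end at 22071797 and begin at 22071719 (79 bases) or 22071731 (67 bases), an acceptor difference of 12 bases. The 79-base form had 35.9, 54.9 and 43.3 FPKM in mutant libraries, against 0, 0 and 0 in wild type libraries. The 67-base form was at 0, 0 and 0 in mutant libraries, against 38.7, 47.0 and 72.5 FPKM in wild type libraries. Thus the 79-base form held 100% of the AE signal in each mutant library and the 67-base form 100% in each wild type library. The difference was 100 points (SE 2.83, adjusted p = 0.000147, limma). Neither share varied within a genotype, so this SE comes only from the variance that limma takes over all forms. It does not measure a spread of npm1a itself.

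The level of the whole gene showed no called change. In the gene table npm1a averaged 34.7 ± 7.41 FPKM in mutant and 41.4 ± 13.1 FPKM in wild type libraries (SD, n = 3 each), with a log2 fold change of -0.23 (SE 0.25, adjusted p = 0.595, limma). The same FPKM values stood in each library at the first exon from 22065025 to 22065214 and the last exon from 22075001 to 22075667, so the value of an AE row is that of the whole transcript that contains the exon. The listed start and end of the npm1a transcript with signal were the same in both genotypes. The npm1a call stood in 16 of 17 alternative settings, with adjusted p from 1.52e-05 to 0.0535.

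In ash2l and nrd1a the share of 1 form went between 0 and a minority. ash2l (ENSDARG00000060392) encodes a core subunit of the histone H3 lysine methyltransferase complexes of the MLL family. Its forms on chromosome 10, minus strand, run from 2748427 to 2748444 (18 bases) or to 2748462 (36 bases), which is an acceptor difference. The 36-base form was at 0, 0 and 0% in mutant libraries, against 38.6, 33.5 and 45.4% in wild type libraries. Its level was 0, 0 and 0 FPKM in mutant libraries, against 1.57, 1.43 and 2.32 FPKM in wild type libraries. The difference of -39.2 points passed narrowly (SE 4.11, adjusted p = 0.0480, limma). It passed in 2 of 17 alternative settings, with adjusted p up to 0.756.

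nrd1a (ENSDARG00000019596) encodes nardilysin, a zinc metalloendopeptidase. Its forms on chromosome 2, plus strand, end at 36846464 and begin at 36846164 (301 bases) or 36846228 (237 bases), an acceptor difference of 64 bases that is not a whole number of codons. The 301-base form held 27.7, 27.5 and 26.3% in mutant libraries, with 1.86, 2.11 and 1.91 FPKM, against 0, 0 and 0% in wild type libraries. The difference of 27.16 points had an SE of 2.86 and an adjusted p of 0.0480 (limma), and it passed in 2 of 16 alternative settings. The share of nrd1a itself had an SD of 0.783 points in the mutant and 0 in wild type. This SE therefore comes mostly from the variance that limma takes over all forms. In both genes the form that differed was at a low level, and in the gene table neither gene passed: ash2l had a log2 fold change of 0.27 (adjusted p = 0.304) and nrd1a of 0.31 (adjusted p = 0.185, limma).

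The next 7 genes by p did not pass the threshold. Their libraries did not overlap between genotypes, as in 108 of the 1898 tested forms. mylka, a myosin light chain kinase gene, gave its 135-base form 100, 100 and 100% in mutant libraries, against 76.1, 71.5 and 76.8% in wild type libraries (acceptor, 27 bases, adjusted p = 0.0887, limma). Its other form was at 0, 0 and 0 FPKM in mutant libraries, against only 0.857, 1.001 and 0.823 FPKM in wild type libraries. The gene as a whole was higher in the mutant, at 15.5 ± 1.99 FPKM, against 5.80 ± 0.663 FPKM in wild type (SD, n = 3 each, log2 fold change 1.28, SE 0.15, adjusted p = 0.00478, limma).

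syncrip, which encodes an RNA-binding protein of the hnRNP Q type, had a 530-base exon on chromosome 20 (2724598 to 2725127) whose donor lies 142 bases beyond that of the 388-base form. The 530-base form was at 0, 0 and 0 FPKM in mutant libraries, against 5.42, 7.60 and 6.66 FPKM in wild type libraries. The 388-base form had 12.1, 11.4 and 16.8 FPKM in mutant libraries and 10.5, 7.66 and 15.3 FPKM in wild type libraries, which overlap. The share of the 530-base form differed by 38.1 points in size, with adjusted p = 0.195 (limma).

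susd6, a gene for a membrane protein with a sushi domain, went the other way. Its 204-base form on chromosome 20 (28994564 to 28994767) held 27.14, 27.98 and 18.05% in mutant libraries, with 4.73, 4.92 and 2.87 FPKM, against 0, 0 and 0% in wild type libraries (donor, 12 bases, adjusted p = 0.202, limma). The gene was higher in the mutant, at 13.5 ± 0.782 FPKM, against 9.22 ± 0.327 FPKM in wild type (SD, n = 3 each, log2 fold change 0.50, adjusted p = 0.0421, limma). The exon lies 2.892 Mb from capn3b.

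In stk25b, a Ste20-family kinase gene, the 164-base form was at 0, 0 and 0% in mutant libraries, against 24.3, 16.2 and 19.3% in wild type libraries (donor, 18 bases, adjusted p = 0.255). In cryz, the gene of the quinone oxidoreductase zeta-crystallin, the 159-base form was at 0, 0 and 0% in mutant libraries, against 15.2, 21.6 and 16.3% in wild type libraries (acceptor, 43 bases, adjusted p = 0.297, limma). In both genes a single form was listed above 0 in mutant libraries and 2 forms in wild type libraries.

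cnot8, a deadenylase subunit gene of the CCR4-NOT complex, gave its 183-base form 34.1, 35.0 and 35.4% in mutant libraries, against 59.5, 72.3 and 86.7% in wild type libraries (acceptor, 21 bases, adjusted p = 0.300, limma). tfcp2l1, a CP2-family transcription factor gene, gave its 143-base form 87.9, 100 and 100% in mutant libraries, against 75.3, 70.8 and 68.1% in wild type libraries (acceptor, 83 bases, adjusted p = 0.300, limma). The 143-base form had 59.8 to 79.6 FPKM in mutant and 56.5 to 105 FPKM in wild type libraries. The 60-base form had 10.9, 0 and 0 FPKM in mutant libraries, against 18.6, 34.5 and 49.2 FPKM in wild type libraries, so it was at 0 in 2 of the 3 mutant libraries.

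**Figure D4:**
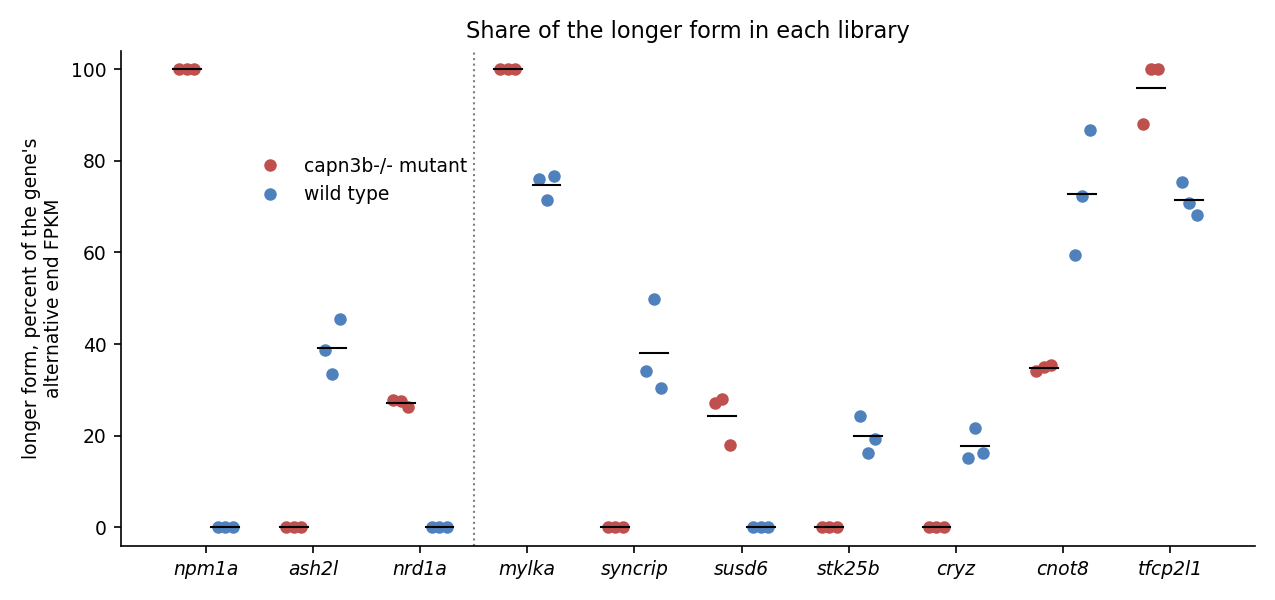
Share of the longer form in each library (y axis, percent of the gene's AE FPKM) for the 10 genes of smallest p (x axis), with mutant libraries left in red, wild type libraries right in blue and black bars for the means of 3 libraries. The 3 genes left of the dotted line passed the threshold; in 8 of the 10 genes every library of 1 genotype lies at 0 or 100%.

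Forms listed at 0 in all libraries of 1 genotype and above 0 in all of the other were found 18 times among the tested forms, in 17 genes. Of these, 6 were at 0 in the mutant and 12 at 0 in wild type, and 4 passed the share test. Besides the genes above, the forms present in the mutant alone lay in EPB41L2, eif4a2, emc9, fryb, the fryl locus, the itih3b locus, mcm3ap, ppp1r13l and zgc:77439, a set named after its values were seen. Their levels spread widely. The 152-base form of mcm3ap, whose product takes part in mRNA export, had 0.317, 0.366 and 0.351 FPKM in mutant libraries, and the 36-base form at the itih3b locus, an inter-alpha-trypsin inhibitor heavy chain gene, had 391, 237 and 205 FPKM, both against 0, 0 and 0 in wild type. The itih3b form was still a minority there, with 22.3, 15.6 and 12.9% of its locus (adjusted p = 0.330, limma), and the locus name joins 3 genes.

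The form with more signal was the same in both genotypes for most pairs. Of the 847 pairs, the longer form averaged over 50% in both genotypes in 405 and under 50% in both in 388. The major form differed by the genotype means in 54 pairs, and in every library of 1 genotype against every library of the other in 8. These 8, named after their values were seen, were npm1a, cnot8, EPB41L2, dync1li1, nfyal, pcmt, thoc2 and si:ch211-229g11.5. pcmt, which encodes a protein repair methyltransferase, gave its longer form 40.3, 35.4 and 44.2% in mutant libraries, against 54.1, 56.2 and 54.1% in wild type libraries (donor, 46 bases). For dync1li1, a dynein light intermediate chain gene, the longer form had 50.9, 51.5 and 55.5% in mutant libraries, against 38.0, 39.3 and 46.9% in wild type libraries (donor, 30 bases). Of these 8 genes only npm1a passed the share test.

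The level of single forms was tested apart from their share, on log2(FPKM + 1). The filter was 1 FPKM in 3 or more libraries, so a form at 0 throughout 1 genotype entered only where it was high in the other. The level p-value of such a form is partly set by this filter. All forms that met the filter were tested. Of these 1261 forms, 66 in 59 genes changed (5.23%, limma, adjusted p under 0.05), 28 higher and 38 lower in the mutant, and 240 had an unadjusted p under 0.05. Forms at 0 throughout 1 genotype are among the 66, in both directions. The smallest adjusted p-values belong to such forms, those of gstz1, the itih3b locus and npm1a, so the counts rest in part on the filter. The median log2 difference over all 1261 forms was 0.04. In the gene table, 1268 of 11164 genes (11.4%) changed by the same kind of test, 5.91% higher and 5.45% lower. For 59 of the 66 forms the gene was also tested, and in 43 of them the gene changed too, 41 in the same direction. The value of an AE row is that of a whole transcript of the gene, so this agreement is partly built in. The share of the form was identical in all 6 libraries for 19 of the 66, and 4 of the 66 also changed in share. The count fell to 23 to 43 when 1 library was left out, with 23, 28 and 35 forms without mutant libraries 1, 2 and 3 and 43, 31 and 37 without wild type libraries 1, 2 and 3.

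Metabolic genes gave examples of a changed level with a constant exon end, named after their values were seen. hmgcs1, of the sterol pathway, had 81.8, 69.9 and 91.3 FPKM for its 158-base form in mutant libraries, against 28.4, 22.3 and 45.3 FPKM in wild type libraries. Its level rose (log2 fold change 1.37, SE 0.28, adjusted p = 0.0464, limma) while this form held the whole AE signal in every library. glulb, a glutamine synthetase gene, had 7.05, 9.69 and 10.3 FPKM for its 193-base form in mutant libraries, against 19.7, 37.2 and 36.8 FPKM in wild type libraries, and fell by 1.65 on the log2 scale (SE 0.29, adjusted p = 0.0331, limma). The 102-base form of abcg8, a sterol exporter gene, fell by 1.11 (SE 0.21, adjusted p = 0.0380, limma). Left-out libraries and other settings kept 3, 5 and 4 of 11 of these calls for hmgcs1, glulb and abcg8.

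A form of eif4a2 and a form of zgc:77439 were the 2 that changed against their gene. These 2 forms were listed at 0 in every wild type library and entered the level test through the mutant libraries alone. eif4a2 encodes an RNA helicase of translation initiation, and its level fell to 11.8 ± 0.722 FPKM in the mutant, against 31.4 ± 4.86 FPKM in wild type (SD, n = 3 each, log2 fold change -1.33, SE 0.15, adjusted p = 0.00457, limma). The 140-base form followed the gene, with 12.3, 8.23 and 12.5 FPKM in mutant libraries, against 31.2, 42.3 and 36.1 FPKM in wild type libraries (adjusted p = 0.0120, limma). The 225-base form, with a donor 85 bases further on, had 1.97, 4.82 and 2.30 FPKM in mutant libraries, against 0, 0 and 0 in wild type libraries (adjusted p = 0.0217, limma). The level call of the 225-base form stood in 3 of 10 alternative settings, with adjusted p from 0.0222 to 0.0813, and was lost when any 1 library other than mutant library 2 was left out. That of the 140-base form stood in 10 of 11. The 225-base form's share of 13.8, 37.0 and 15.6% in the mutant did not pass (adjusted p = 0.779, limma). The small nucleolar RNA genes SNORD2 and SNORA81 overlap eif4a2.

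In zgc:77439 the 254-base form fell to 623, 652 and 398 FPKM in mutant libraries, against 1317, 2231 and 1494 FPKM in wild type libraries, while the 226-base form had 97.3, 179 and 65.8 FPKM in mutant libraries, against 0, 0 and 0 in wild type. The adjusted p-values of the 2 levels were 0.0313 and 0.00016 (limma). The 254-base call stood in 4 of 11 alternative settings, with adjusted p up to 0.0987, and was lost when any 1 library other than wild type library 1 was left out. The 226-base call stood in 11 of 11, but this form entered the test through the mutant libraries alone, so that count is no further support.

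Conversely, 16 of the 59 forms changed in level in genes that did not pass. They included forms of npm1a, ash2l, nrd1a, syncrip and cryz described above, each listed at 0 in 1 genotype and let into the test by the other alone. A form of rhoac, a gene for a RhoA-type small GTPase, was among them: its 191-base exon had 13.91, 12.45 and 12.01 FPKM in mutant libraries, against 3.43, 4.38 and 6.91 FPKM in wild type libraries (log2 fold change 1.26, SE 0.24, adjusted p = 0.0380, limma), while the gene had a log2 fold change of 0.18 (adjusted p = 0.391). The rhoac call stood in 4 of 11 alternative settings, with adjusted p up to 0.132, and was lost when any 1 library other than wild type library 3 was left out.

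**Figure D5:**
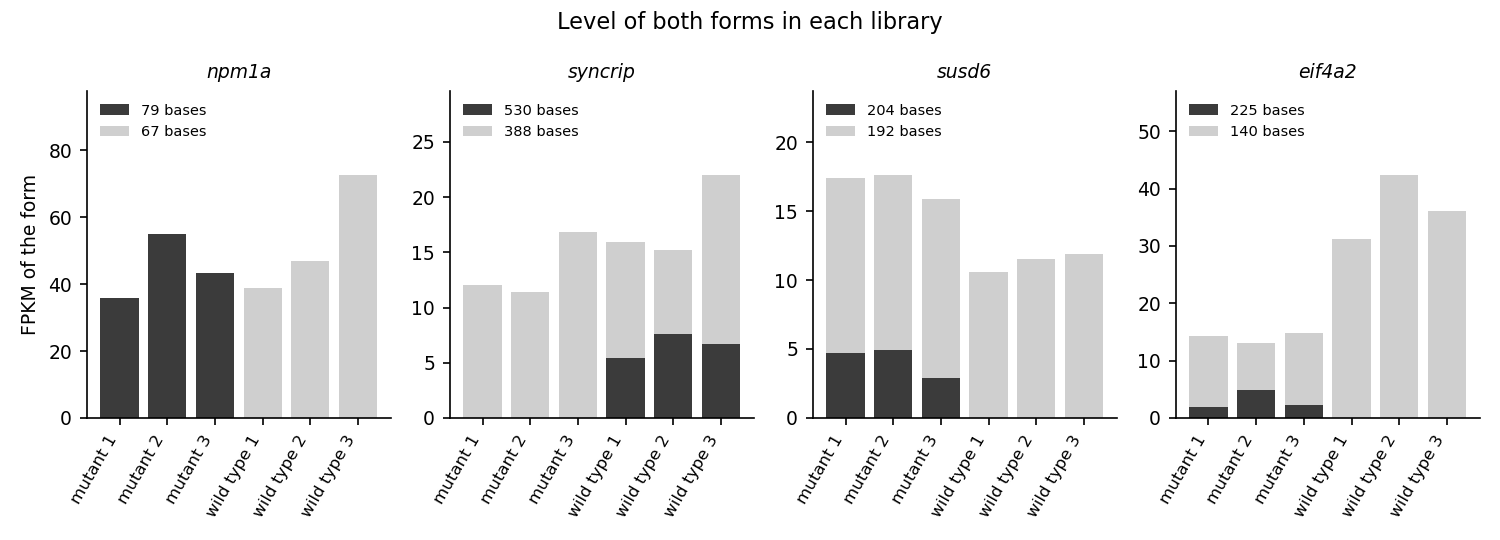
FPKM of both forms (y axis, stacked, longer form dark at the base) in each library (x axis, 3 mutant then 3 wild type) of npm1a, syncrip, susd6 and eif4a2. In npm1a the bars are all dark in the mutant and all light in wild type; the dark form is present in wild type only for syncrip and in the mutant only for susd6 and eif4a2.

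In 4 genes the AE signal as a whole was at 0 in 1 genotype while the forms reached a sum of 1 FPKM or more in each library of the other, and the zeros kept these genes out of the share test. gstz1, for the maleylacetoacetate isomerase of tyrosine breakdown, had 4 forms at 2 neighbouring exons, all at 0, 0 and 0 in mutant libraries, while the longer form of each exon had 158, 220 and 251 FPKM in wild type libraries (adjusted p = 7.38e-06, limma). The gene table gave gstz1 12.4, 13.8 and 21.9 FPKM in mutant libraries, against 28.5, 35.0 and 43.5 FPKM in wild type libraries (log2 fold change -1.13, SE 0.24, adjusted p = 0.0258, limma). The event lists thus gave no signal in the mutant, where the gene table has some, and more than the gene table in wild type. The 2 sources differ here in scale, so only their direction can be set side by side.

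The other 3 genes had AE signal in the mutant alone. ndufaf1, a complex I assembly factor gene, had 6.75, 8.49 and 9.14 FPKM for its 61-base form in mutant libraries, against 0, 0 and 0 in wild type libraries (adjusted p = 0.00016), while in the gene table it had a log2 fold change of 0.21 (adjusted p = 0.490, limma). The 144-base form at the narfl locus, which joins 2 gene names, had 10.1, 9.79 and 7.99 FPKM in mutant libraries, against 0, 0 and 0 in wild type libraries (adjusted p = 9.71e-05, limma). eps8l3a, of the EPS8 family of actin regulators, had 3.38, 2.98 and 1.91 FPKM for 1 form at each of 2 exons in mutant libraries, against 0, 0 and 0 in wild type libraries (adjusted p = 0.0113, limma), and its gene rose by a log2 fold change of 0.79 (SE 0.16, adjusted p = 0.0233, limma). These 4 genes were picked after their values were seen, for zeros in 1 genotype. Their level p-values follow from that choice and are no further support. In the gene table, wild type libraries held ndufaf1 at 4.16, 2.99 and 4.43 FPKM and eps8l3a at 1.44, 1.18 and 1.21 FPKM. The zeros of these 2 genes in the event lists are therefore not absence of the gene's RNA.

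In 5 lists of host genes of the liver's main programmes, 0 of 58 tested forms passed the share threshold, beside 0.316% over all forms (limma). At an unadjusted p under 0.05 there were 2 of 58, both of eif4a2, beside 84 of 1898 over all forms. Of 72 plasma protein genes listed, 4 had kept forms and 3 were tested. c3a.6, a complement C3 gene, used both donors in every library: its 118-base form held 47.7, 44.3 and 45.6% in mutant libraries, against 44.4, 53.5 and 33.4% in wild type libraries, which overlap. The shorter form of gc, the vitamin D binding protein gene, held 100, 100 and 89.0% in mutant libraries and 100, 88.8 and 100% in wild type libraries, and at the f7, f7i and f10 locus of coagulation factors the 25-base form held 100% in all 6.

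Of 73 liver metabolic enzyme genes, 6 had kept forms and were tested. elovl5, a fatty acid elongase gene, gave its 65-base form 81.8, 100 and 78.5% in mutant libraries, against 65.1, 65.7 and 81.3% in wild type libraries (adjusted p = 1, limma). acaca, for acetyl-CoA carboxylase, gave its 225-base form 89.4, 58.2 and 86.7% in mutant libraries, against 73.1, 79.4 and 87.9% in wild type libraries. ldlra, an LDL receptor gene, used the 228-base form alone in all but 1 library, mutant library 1, where it held 84.7%. The spread within a genotype was as wide as any difference between them in these 3 genes.

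Translation genes seldom varied in share. Of 107 listed, 14 had kept forms and were tested, and of their 30 forms only the 2 of eif4a2 varied. eef1b2, a subunit of the elongation factor 1 exchange complex, held 545 to 669 FPKM in mutant and 461 to 550 FPKM in wild type libraries in its 130-base form alone, and rpl18 also used 1 form throughout. Their median absolute difference in share was 0 points, beside 2.35 points over all 1898 tested forms. Of 47 unfolded protein response and secretory genes, herpud1 and sec61b were tested. herpud1, of the ER-associated degradation machinery, gave its 149-base form 100, 100 and 74.5% in mutant libraries, against 63.5, 100 and 66.8% in wild type libraries, and sec61b of the translocon used its 105-base form alone.

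Of 68 innate immune genes 4 had kept forms and 3 were tested. irf9, an interferon signalling factor gene, had its 57-base form at 20.4, 0 and 25.6% in mutant libraries, against 0, 0 and 0% in wild type libraries (adjusted p = 1, limma). The mhc1 locus of MHC class I genes used its 314-base form at 27.7% in mutant library 1 and at 0 elsewhere, and cd74a, the MHC class II invariant chain gene and a macrophage marker here, used its 170-base form alone in all 6. Of the 6 immune forms tested, 0 passed the threshold and 0 had an unadjusted p under 0.05 (limma), counts near the background of 0.316% called and 84 of 1898 forms.

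The AE genes with the highest FPKM used 1 form in all libraries in 4 of 5 cases. The tpt1 locus, which encodes the translationally controlled tumour protein, had 2674 to 2798 FPKM in mutant and 2538 to 2701 FPKM in wild type libraries in its 74-base form. ppdpfa had 1485 to 1818 FPKM in mutant and 2164 to 4236 FPKM in wild type libraries in its 97-base form, a level difference that did not pass (adjusted p = 0.123, limma). The other case, si:dkey-14d8.6, is named after its values were seen. Its 47-base form held 92.2, 91.2 and 93.6% in mutant libraries, against 0, 91.6 and 90.6% in wild type libraries, so that wild type library 1 alone stood apart. Its level there was also far below the others, at 2.71 FPKM in the gene table against 215 and 414 FPKM in the other wild type libraries.

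Among the 3 genes picked for most forms in the share test was fryb, of the furry family, with forms at 4 exons. Its transcript signal is counted at each of the 4 exons, so no form can hold more than 25% of the gene's AE FPKM. The 249-base form held 13.99, 25 and 6.65% in mutant libraries, against 0, 0 and 0% in wild type libraries (acceptor, 102 bases, adjusted p = 0.934, limma). The 147-base form of that exon held 11.02, 0 and 18.4% in mutant libraries, against 25, 25 and 25% in wild type libraries, so in mutant library 2 the 249-base form was the only one with signal. The other exons of fryb kept the same major form in most libraries. celsr1a, a planar cell polarity cadherin gene, had 5 paired exons at 0.0536 to 0.655 FPKM where above 0, too low for its alternations to be read. The other gene of this kind has a clone name, and none of its forms passed.

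Chromosome 20, which carries capn3b (26056028 to 26102200), had 12 of 69 tested forms (17.4%) without overlap between the genotypes, the highest share of any chromosome, beside 5.69% over all tested forms. Chromosome 2 followed with 12 of 92 (13.0%). The share varied in 43 of the 69 forms and in 61 of the 92, and only such forms could separate. The 12 forms on chromosome 20 came from 5 genes, syncrip, susd6, EPB41L2, pcmt and the fryl locus, and none passed the test. On chromosome 20, 9 of the 69 tested forms had an unadjusted p under 0.05 (limma), beside 84 of 1898 over all tested forms. The 2 forms of a pair mirror each other, so these counts come from few genes. Within 10 Mb of capn3b, 4 of 26 forms had no overlap, those of susd6 and of 1 exon of the fryl locus. Of these 26, the 2 of susd6 had an unadjusted p under 0.05 (limma). The syncrip exon lies 23.331 Mb from capn3b.

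Few genes that set splice site choice passed the level test. Of 108 genes listed, 101 had a row in the gene table and 94 were tested. 1 rose, none fell and 93 did not pass, beside 11.4% of all genes changed. The median log2 fold change of the 94 was 0.07, beside 0.05 over all genes tested. The gene that rose, prpf39, encodes a U1 snRNP-associated protein. It had 47.0, 52.3 and 43.7 FPKM in mutant libraries, against 33.0, 30.6 and 31.1 FPKM in wild type libraries (log2 fold change 0.58, SE 0.13, adjusted p = 0.0332, limma), and its own AE forms kept an adjusted p of 1.

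Further genes of small p did not pass. ptbp1b, for a polypyrimidine tract binding protein, averaged 7.89 ± 2.54 FPKM in mutant and 3.39 ± 1.46 FPKM in wild type libraries (SD, n = 3 each, adjusted p = 0.0598, limma). sf3b4, of the U2 snRNP, averaged 8.31 ± 0.534 FPKM in mutant and 5.09 ± 1.36 FPKM in wild type libraries (adjusted p = 0.0623, limma). slu7, for a factor of the later splicing step, averaged 8.18 ± 0.298 FPKM in mutant and 6.28 ± 0.102 FPKM in wild type libraries (adjusted p = 0.116, limma). The means of these 3 genes were higher in the mutant. By list, 1 of 9 U1 genes, 0 of 19 U2 genes, 0 of 27 SR protein and kinase genes and 0 of 39 hnRNP and tissue splicing genes passed, with 2, 3, 0 and 7 at an unadjusted p under 0.05 (limma). Together these were 12 of the 94 genes. Over all genes tested the unadjusted share was at least the 11.4% that passed the adjusted threshold, and its full size is not given here. Leaving out 1 library moved the count to between 0 and 5: it was 0 without mutant library 1 or 2 or wild type library 1 or 2, 2 without mutant library 3 and 5 without wild type library 3. Of the 94 genes 15 had AE forms of their own in the share test.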

How the data were processed

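The build was GRCz11 and the tools included DESeq2, per the submitters' processing notes. Which aligner, annotation and event caller the authors ran is not given in the sources used here. The authors deposited FPKM per gene in 1 table and FPKM per event in 1 list per library; depth is not stated, FPKM are not counts, and no count model was used. An exact 0 can be a failed estimate, so such forms are described as listed at 0.

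Members and gene lists were chosen with earlier results of these data known. AE rows were matched and kept as described above. Shares (percent of a gene's AE FPKM) were fitted with limma 3.58.1 in R 4.3.3 without a trend, two-sided, with forms of constant share counted among the tests as not different. Levels of forms and genes were fitted on log2(FPKM + 1) with a trend, for features of at least 1 FPKM in at least 3 libraries; fold changes on that scale understate low features. Benjamini-Hochberg adjustment ran over all features tested, with a threshold of 0.05. The share test was tested on simulated data.

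Named genes were those past the share threshold, filled to 10 by p. Among genes in the share test, the 5 with the highest AE FPKM and the 3 with most forms were added. Further picks were 3 per host list and, among splicing genes, the 5 of smallest p. Others are marked as chosen after their values were seen. Genes that the rule picked but the text does not name are not reported here. The gene name of 135 kept forms differed between libraries, and 99 kept genes have a name that joins several genes. Alternatives covered the filter, the logit of the share, the denominator, the moderation, the pseudocount, scaling, a replicate block and each library left out. No genome of the files' build was used here, so no exon sequence is shown.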

Additional observations from a re-analysis of the deposited data

Results flagged for a closer look

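A few forms were listed in all 3 mutant libraries and in no wild type library, which kept them out of the forms present everywhere: 21 forms, in 10 named genes and 1 unnamed locus. A form that is not listed is not the same as a form at 0, and the difference was not tested. Of these, 3 forms reached at least 1 FPKM in every mutant library. The 151-base exon of clasp2, a microtubule plus-end protein gene, had a lowest mutant value of 4.50 FPKM, the 102-base exon of epn3a, an epsin gene of endocytosis, 1.67 FPKM and the 145-base exon of acss3, an acyl-CoA synthetase gene, 1.69 FPKM. In the other direction 14 forms in 7 genes were listed in wild type libraries alone, 6 of them at 1 FPKM or more in each.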

How the results depend on the processing

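The 6 forms in 3 genes past the share threshold became 2 forms in 1 gene, npm1a, with no filter on low values, with a filter of 5 FPKM, with shares within overlapping exons, with forms in at least 3 libraries, with robust moderation and with a trend; added after seeing the data, the same 2 forms in 1 gene were left without joined loci and with shares varying by an SD under 0.5 points taken as constant. Leaving out 1 library gave 2 to 2 forms and 1 to 1 genes. On the logit of the share 31 forms in 18 genes passed, and among forms above 0 FPKM in every library, also added later, 0 forms and 0 genes. With the replicate block 0 forms and 0 genes passed for share, 22 forms, against 66, for level and 0 splicing genes. Same-numbered libraries did not deviate together over all varying shares (correlations of -0.0817, -0.0855 and -0.0240). The labels do not say whether the numbers pair libraries, and a pairing that touches only some genes was not tested. Forms changed in level were 40 with no filter and 23 to 43 without 1 library. Splicing genes that changed were 2 with a filter of 5 FPKM, 2 with median scaling and 0 to 5 without 1 library, against 1. The cause of these changes was not tested. Among single forms and genes, 663 values kept their side of the threshold, 85 lost it, 13 gained it and 0 called values changed sign. With 3 libraries a genotype and no depth given, low forms limit what the shares can show.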
